A study of Mus musculus with 44 samples.

Results

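The proteasome genes were followed through every library of a mouse brain series in which RNA levels, ribosome-protected fragments (RPFs) and poly(A)-tail lengths were measured. Members were the RefSeq rows whose mouse symbol begins with Psm, continues with a letter from a to g, and then carries a digit. This rule used no measured value and took 51 of 17158 accessions. Of these, 49 encode proteasome subunits, activators, an inhibitor or assembly chaperones, and these 49 are the members described here. The other 2, Psmc3ip and Psme3ip1, carry the pattern in the names of proteins that are not part of the proteasome and were left out of the lists. The 20S core particle was represented by 14 genes (Psma1 to Psma7 and Psmb1 to Psmb7) and the 19S regulatory particle by 17 genes (Psmc1 to Psmc6, Psmd1 to Psmd4, Psmd6 to Psmd8 and Psmd11 to Psmd14).

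The proteasome is the protease that degrades ubiquitylated proteins. Its core particle is a barrel of alpha and beta rings, and the peptide bonds are cut inside by Psmb5, Psmb6 and Psmb7. The regulatory particle caps the barrel: its ring of Psmc ATPases unfolds the substrate, its base subunits Psmd2 and Psmd4 bind ubiquitin or ubiquitin-like domains, and Psmd14 in its lid removes the ubiquitin chain. Because both particles are built from fixed numbers of subunits, their genes form a natural set in which core and regulatory members can be read side by side.

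Cultured cortical neurons came from newborn C57BL/6J pups of both sexes, several animals pooled per sample, and were harvested after 14 days in vitro (DIV14), or DIV10 for the KCl series. DIV14 cultures were left unstimulated or were treated with BDNF or with glutamate and glycine (glu/gly) for 30 min, and DIV10 cultures were unstimulated or depolarized with KCl for 10 or 30 min. Other DIV14 cultures carried a lentivirus, added at DIV5, that expressed EGFP from the synapsin promoter, with miR-1, with miR-155 or without a miRNA (GFP). By the study's culture protocol, neurons received ara-C, which acts against dividing cells. The protocol also names 2 preparation batches of 3 samples, which the labels do not assign to cultures. Tissues were hippocampus of embryos (E16), hippocampus of an adult male, and cortex of an adult male. Each culture and tissue gave 1 library per assay, so no test between them was possible, and intervals given for them cover counting error only. Visual cortex came from 4 mice kept for 1 week in the dark and 4 mice exposed to light for 1 h after such housing, all aged 6 to 7 weeks.

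RNA-seq gave 448022 to 7689624 reads on genes in 12 libraries, and RPF libraries of settled label gave 2812215 to 23212489 in 10. Tails were measured by TAIL-seq in the 9 cultures and the adult cortex (389654 to 1057812 tags) and by PAL-seq in the visual cortices (1233538 to 4812273 tags) and the hippocampi (86841 and 221876 tags). The neuronal marker genes summed to 3544 to 4377 RPM (reads scaled to the library's reads on genes) in the cultures and 3472 to 4224 in the tissues. Astrocyte markers summed to 1029 to 1981 RPM in cultures against 532 to 2101 in tissues, so the cultures were not free of glial RNA. Microglial markers summed to 0.947 to 28.3 RPM in cultures against 64.4 to 335 in tissues, and oligodendrocyte markers to 4.17 to 15.1 against 14.4 to 1603. Progenitor markers summed to 2135 RPM in the embryonic hippocampus, 51.1 in the adult hippocampus and 48.6 in the adult cortex, against 152 to 726 in cultures. The part of these cell types in the results was not tested. RNA for sequencing was selected by poly(A) for the hippocampi, and depleted of rRNA for the adult cortex and for 6 of the cultures. In these bulk samples, fewer cells of a type and less RNA per cell cannot be told apart.

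Several proteasome genes have processed copies elsewhere in the mouse genome, and the counted reads have to be read with this in mind. Each coding sequence was divided into all its 30-nt windows, about the length of an RPF, and each window was searched for an exact second copy outside the gene on the 21 assembled chromosomes of GRCm38.p6. Psma3 had the largest copied share, 91.8% of its windows, followed by Psma5 (89.4%), Psmb3 (84.7%), Psme2 (79.2%), Psmb5 (78.1%) and Psma4 (60.4%). In the regulatory particle Psmd11 (51.45%) and Psmc1 (49.6%) had the largest shares. Examples of windows that occur identically at a second place are shown for the 5 subunits with the lowest counted levels, at the GRCm38.p6 (mm10) position of the gene and read along its coding strand, all in lower case because every base is shared.
Psma3 (chr12:70984707-70984736, plus strand): ctatacactctacagcgctgttagaccttt
Psma5 (chr3:108267849-108267878, plus strand): gtccaatctggctctgcagtttggagaaga
Psmb3 (chr11:97706867-97706896, plus strand): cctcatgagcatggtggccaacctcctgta
Psmb5 (chr14:54616618-54616647, minus strand): tatgagcttcgcaataaggaacgcatctcg
Psmd11 (chr11:80456297-80456326, plus strand): tacagcttttagaaagcaaaacttaccatg

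The Psma3 window recurred inside the annotated span of Lncpint (chr6:31142352-31142381, minus strand) and the Psmb3 window inside that of Itch (chr2:155198971-155199000, minus strand). The Psma5 window recurred in the pseudogene Gm12989 (chr4:135716217-135716246, minus strand) and the Psmb5 window in Psmb5-ps (chr11:102659521-102659550, minus strand). The Psmd11 window recurred in A730017L22Rik (chr2:130881370-130881399, plus strand). The most complete copy was that of Psma3 in the Lncpint span (chr6:31141979-31142643), which held 86.1% of its windows.

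The 4 core genes above 75% copied windows among the core subunits were also the 4 with the lowest counted levels. Levels are given per length, as reads per kilobase of counted coding sequence, scaled to RPM of reads on genes (density), and were divided by the median core or regulatory subunit of the same library. Over the 10 states with both assays, the median relative RNA density was 0.0971 for Psma5, 0.115 for Psma3, 0.206 for Psmb3 and 0.273 for Psmb5. Relative RPF density was 0.0495, 0.0957, 0.290 and 0.221 in the same order. Psmd11, a lid subunit, stood at 0.158 in RNA density and 0.441 in RPF density of the median regulatory subunit. These values say how many reads were assigned to each gene, and the copied share beside them is a measured property of the sequence. Whether it set these levels was not tested.

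The 3′-end tags of the tail assays, which do not depend on the coding sequence but were kept by the authors only where they mapped to 1 place, placed some of these genes differently. Psmb3 was at 0.185 of the median core subunit in TAIL-seq but at 1.02 in the visual cortices, and Psma5 was at 0.667 and 0.557. Psma3 stayed low at 0.0330 and 0.108, and Psmb5 at 0.185 and 0.184. Across the 14 core subunits, Spearman's rho between the copied share and the relative level was −0.81 for RNA, −0.75 for RPFs, and −0.74 for both tag measurements. Across the 17 regulatory subunits it was −0.24, −0.33, −0.19 and −0.09. These coefficients describe points that share libraries and carry no test.

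Core and regulatory genes together took 0.773% of RNA-seq reads in the unstimulated DIV14 culture (95% Wilson interval 0.750 to 0.798), of which the core genes held 0.285% and the regulatory genes 0.488%. The share lay between 0.638% and 0.837% in the 9 cultures. It was 0.381% in the adult hippocampus, 0.504% in the embryonic hippocampus and 0.369% in the adult cortex, so that every tissue lay below every culture. The RPF share did not separate in this way: it was 0.494% to 0.643% in the 7 cultures, 0.397% in the adult hippocampus, 0.713% in the embryonic hippocampus and 0.435% in the adult cortex. The embryonic hippocampus thus had the largest share of RPFs on the proteasome and, among the tissues, the largest share of RNA.

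In the core particle, the most abundant mRNAs per length were those of the beta subunits Psmb4 and Psmb1 and the alpha subunit Psma7. Psmb4 had an RNA density of 515 to 732 (median 657) in the 9 cultures, and 220 in the adult hippocampus, 274 in the embryonic hippocampus and 244 in the adult cortex. Psma7 had 464 to 805 (median 562) in cultures, and 235, 434 and 195 in these tissues. Psmb1 had 457 to 613 (median 509), and 227, 263 and 227. For all 3 genes the tissues lay below the cultures without overlap. In the regulatory particle the highest levels were those of the ubiquitin receptor Psmd4, with 276 to 380 (median 337) in cultures and 156, 203 and 152 in the tissues, and of the ATPase Psmc3, with 277 to 400 (median 314) in cultures and 227, 215 and 211 in the tissues. These ranges did not overlap either, but the separation of Psmc3 was small beside that of Psmb4.

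The spread of levels within a particle was set by a few genes at its lower end. In the 7 cultures with both assays, the highest regulatory RNA density exceeded the lowest, always that of Psmd11, by 8.72-fold to 32.6-fold. For RPF density this ratio was 3.69 to 5.06. The larger RNA ratio rested on Psmd11: among the other 16 regulatory subunits, median relative density over the 10 states ran from 0.513 (Psmd3) to 1.62 (Psmd4) in RNA and from 0.447 (Psmc1) to 1.56 (Psmd13) in RPFs. In the core particle the ratio was large in both assays, 15.6 to 39.8 for RNA and 24.1 to 42.6 for RPFs in the same cultures, with Psma5 or Psma3 at the lower end. At the upper end of the regulatory RPF densities stood the lid subunit Psmd13 (218 to 322 in cultures).

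**Figure D1:**
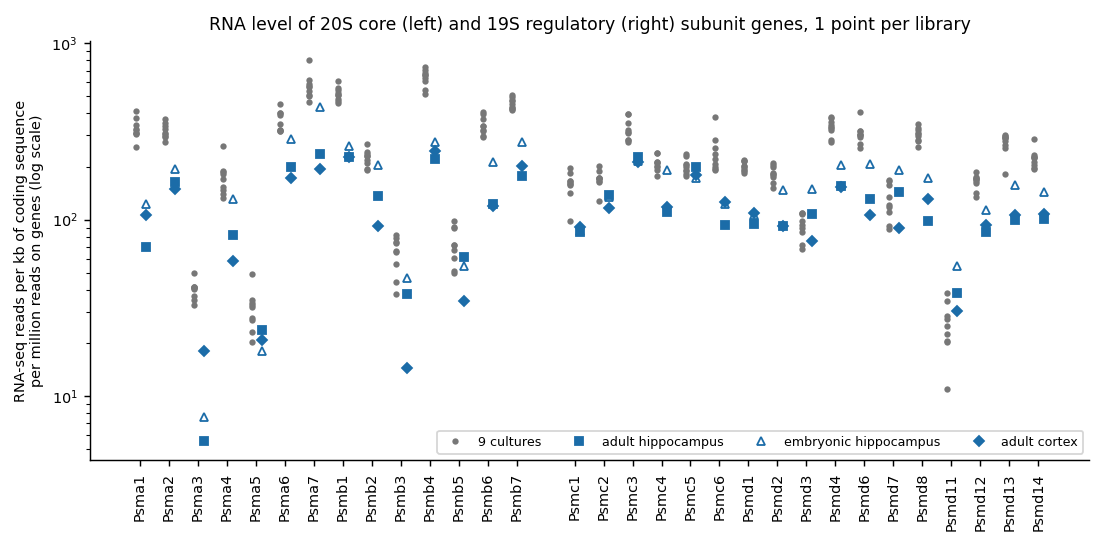
RNA density of the 14 core (left) and 17 regulatory (right) subunit genes, as RPM of reads on genes per kilobase of coding sequence (log scale), 1 point per library: 9 cultures (gray circles), adult hippocampus (filled squares), embryonic hippocampus (open triangles) and adult cortex (diamonds). Most genes show the culture points above the tissue points, whereas for Psmc5, Psmd3, Psmd7 and Psmd11 at least 1 tissue is above the median culture.

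Among the catalytic subunits of the constitutive core, Psmb7 (trypsin-like) had an RNA density of 416 to 509 (median 452) in cultures and of 177, 275 and 202 in the tissues, named in the same order as above. Psmb6 (caspase-like) had 294 to 407 (median 339), and 123, 213 and 120. Psmb5 (chymotrypsin-like), most of whose sequence is copied, had 50.1 to 98.0 (median 71.8), and 61.0, 54.6 and 34.6, so that the groups overlapped. The interferon-inducible replacements of these subunits were low. Psmb8 had 0 to 26.9 (median 10.1) in cultures and 1.06 to 2.25 in tissues, and Psmb9 had 3.11 to 19.3 (median 9.26) in cultures and 0 to 1.80 in tissues. Psmb10 was the most abundant of them, with 38.2 to 92.3 (median 66.5) in cultures and 38.6, 23.1 and 67.4 in the tissues. Psmb8 rested on 0 to 25 reads per culture and on 6, 8 and 3 reads in the tissues. Psmb9 rested on 1 to 10 reads per culture and on 8, 0 and 0 reads in the tissues. The levels of both therefore carry a wide counting error. A list of 10 genes of interferon signaling and antigen presentation summed to 135 to 663 RPM in cultures and 70.7 to 166 in tissues. The culture with the highest sum, unstimulated DIV10, also had the highest Psmb8, but not the highest Psmb9 or Psmb10. Psmb9 was highest in the unstimulated DIV14 culture (19.3, against 13.8 at DIV10) and Psmb10 in the miR-1 culture (92.3, against 68.5).

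Psma8, the testis form of an alpha subunit, reached an RNA density of 0.740 in the embryonic hippocampus and was at 0 in the other 11 libraries. Psmb11, the thymus-specific catalytic subunit, was at 0 in all but the miR-155 culture, where it had 0.551. The Psma8 value rested on 4 reads, in the RNA-seq library with the most reads. That of Psmb11 rested on 1 read, in the culture library with the most reads. Among activators, the interferon-inducible Psme1 had 44.9 to 99.6 (median 72.9) in cultures but 39.0, 129 and 18.4 in the tissues, highest in the embryonic hippocampus. Its partner Psme2 had 13.9 to 39.4 in cultures and 10.1 to 11.4 in tissues, and 79.2% of its windows have a second copy, mainly in Psme2b. The nuclear activator Psme3 had 49.1 to 95.8 in cultures, and 110, 142 and 69.6 in the tissues. The inhibitor Psmf1 had 35.4 to 55.4 in cultures and 23.9, 45.3 and 23.7 in the tissues. Core assembly chaperones were all below the median core subunit: the culture medians were 46.2 for Psmg1, 50.1 for Psmg2, 30.8 for Psmg3 and 76.2 for Psmg4. Those of the regulatory assembly chaperones were 111 for Psmd5, 85.2 for Psmd9 and 46.3 for Psmd10. Psmd5 had 45.9, 47.5 and 50.7 in the tissues against 82.8 to 133 in the cultures, with no overlap.

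The separation of cultures and tissues in RNA was counted over members with a median of at least 10 RPM in RNA-seq by the authors' scale, the study's cutoff. Of 31 such members, 21 had a lower share of reads in all 3 tissues than in all 9 cultures, against 21.5% of all 4974 genes. None had a higher share in all 3 tissues, against 6.25% of all genes. The count was 9 of 11 core genes and 11 of 16 regulatory genes. The members that overlapped were the core genes Psmb2 and Psmb5, the ATPases Psmc2, Psmc4 and Psmc5, the lid subunits Psmd3 and Psmd7, the chaperone Psmd9, the activator Psme4 and the alternative subunit Psmb10. In RPFs, 3 of 39 members were lower in all 3 tissues than in all 7 cultures, close to the 8.98% of all genes, and 0 were higher, against 4.77%. Neither these counts nor the summed shares took account of coding length. Between adult cortex and unstimulated DIV14 culture, the median log2 RNA change of all genes ran from −0.79 under 600 nt to 0.48 at 3000 nt or more. The part of coding length in the counts was not tested.

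Adult cortex was compared with unstimulated DIV14 culture, since the cultures were made from cortex. All 28 members above the cutoff in both had less RNA in the adult cortex, and 24 of them were at least 1.5-fold lower, against 30.5% of all genes, while 0 were at least 1.5-fold higher, against 20.1%. The median member was 2.23-fold lower (log2 change −1.16) where the median gene changed by −0.21. Core genes were lower by more than regulatory genes, with medians of −1.36 and −0.85. The largest differences were in the alpha subunit Psma1, which was 3.23-fold lower (95% counting interval 2.52 to 4.15, from 129 and 134 reads), and in the lid subunits Psmd6 (2.86-fold, 2.32 to 3.52) and Psmd13 (2.83-fold, 2.28 to 3.497). The smallest were in the ATPase Psmc5 (1.28-fold, 1.05 to 1.57), the lid subunit Psmd3 (1.41-fold, 1.08 to 1.83) and the activator Psme4 (1.42-fold, 1.13 to 1.77). Psmb7 was 2.52-fold lower (2.09 to 3.03) and Psmd14 2.07-fold lower (1.60 to 2.68).

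As shares of reads on genes, the RPFs of the same members differed far less. Their median log2 change was −0.32, with −0.43 for core and −0.16 for regulatory genes, where the median gene changed by −0.08. Of the 28 members, 5 were at least 1.5-fold lower, near the 16.7% of all genes, and 0 were higher, against 12.2%. Psma1 had an RPF change of 1.26-fold lower (1.14 to 1.38), Psmb7 of 1.07-fold higher (0.989 to 1.15) and Psmc5 of 1.22-fold higher (1.11 to 1.34). Psme4 departed from this pattern, with RPFs 2.48-fold lower (2.10 to 2.93). TE, the log2 ratio of RPFs to RNA, was at least 1.5-fold higher in 20 of 28 members, against 22.8% of all genes, and at least 1.5-fold lower in Psme4 alone (log2 change −0.86), against 21.8%. The TE change was largest for Psmb7 (1.37), Psmd4 (1.35) and Psma1 (1.31). TE was taken from the authors' RPM, whereas RNA and RPF changes are shares of reads on genes, so a TE change need not equal the difference of the other values. Since TE has the RNA value in its denominator, it is no independent measure of the lower RNA.

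Coding length moved with this comparison. Median TE over all genes in the adult cortex was 2.33 for genes counted over less than 600 nt, 1.89 from there to 900 nt, 1.60 to 1500 nt, 1.204 to 3000 nt and 0.69 beyond. Core genes were counted over 487 to 784 nt and regulatory genes over 883 to 2812 nt. Each value was therefore also taken relative to the median gene of its length class, a step chosen after these medians were seen. The RNA change then became −0.68 for core and −0.40 for regulatory genes, with 1 of 28 members above its class, and the TE change became 0.23 and 0.38. The RPF change became −0.45 for core and −0.14 for regulatory genes, with 7 of 28 members above their class. The gap between RNA and RPFs was thus smaller relative to length class. The 3′-end tags of the same samples gave medians of −0.54 for core and −0.24 for regulatory genes, with 24 of 28 members below 0, or −0.46 and −0.26 relative to length class. The direction was the same in RNA-seq and in tags, and the size was smaller in tags.

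**Figure D2:**
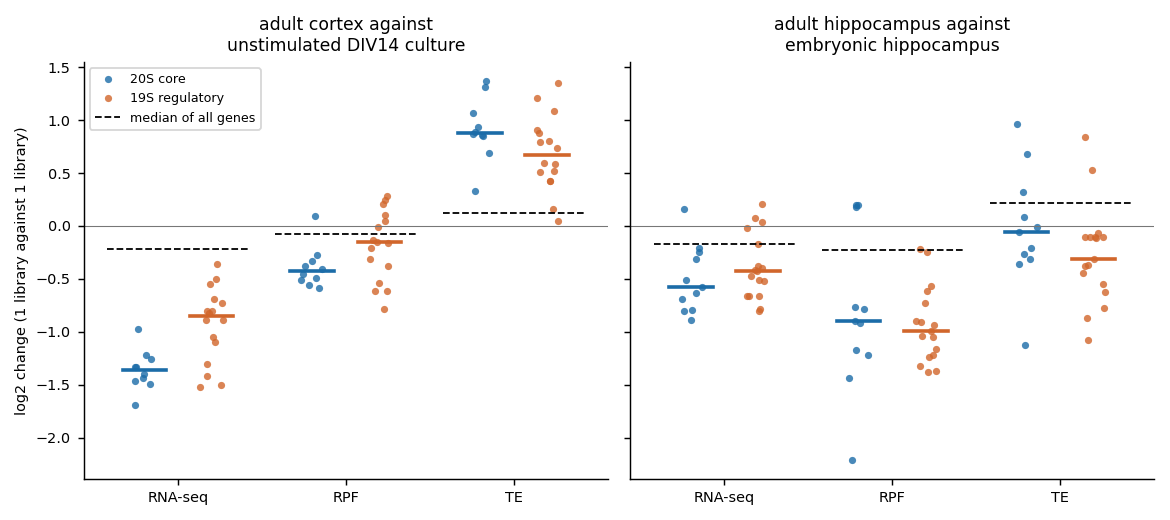
Log2 change of RNA, RPFs and TE per member between adult cortex and unstimulated DIV14 culture (left) and between adult and embryonic hippocampus (right); points are core (blue) or regulatory (orange) genes, colored bars their medians and dashed lines the median of all genes. In the left panel RNA lies well below the dashed line and RPFs near it, whereas in the right panel RPFs lie furthest below it. RNA and RPF changes are shares of reads on genes, and TE uses the authors' RPM.

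Between adult and embryonic hippocampus, whose RNA was poly(A)-selected in both, the median member was lower in the adult in both assays. As shares of reads on genes, the larger difference was in RPFs. Of 33 members, 27 had at least 1.5-fold fewer RPFs in the adult, against 38.9% of all genes, and 0 had more, against 28.4%. The median log2 change was −0.93, equal to 1.91-fold lower, with −0.90 for core and −0.99 for regulatory genes, where the median gene changed by −0.23. In RNA, 12 of 33 members were at least 1.5-fold lower, near the 31.5% of all genes, and 0 were higher, against 24.2%, with a median of −0.51 beside −0.17 for all genes. With the authors' RPM, on which TE rests, the median RNA change was −0.83, so the gap between the assays depends on the scaling. TE changed by −0.12 in the median member where the median gene changed by 0.22, with 3 members at least 1.5-fold higher (30.8% of all genes) and 6 lower (15.8%). Relative to the length class, the RPF change was −0.88 for core and −0.86 for regulatory genes.

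The largest RNA differences were in 2 activators. Psme4, the large activator known from spermatid differentiation and nuclear proteasomes, had 4.44-fold less RNA in the adult (95% counting interval 3.99 to 4.94) and 13.7-fold fewer RPFs (12.2 to 15.5), from 291 and 4277 RPFs. Its RNA density was 10.6 in the adult and 47.0 in the embryonic hippocampus, where the 9 cultures ranged from 30.9 to 59.1. Psme1 had 3.30-fold less RNA (2.82 to 3.88) and 2.83-fold fewer RPFs (2.64 to 3.04). Among core subunits Psma1 had the largest RPF difference, 4.62-fold lower (4.33 to 4.92), while its RNA was 1.75-fold lower (1.54 to 1.99). Psma6, Psmb1 and Psmb5 went the other way, with RPFs 1.13-fold (1.08 to 1.18), 1.145-fold (1.09 to 1.2) and 1.15-fold (1.06 to 1.25) higher in the adult. All 17 regulatory genes had fewer RPFs in the adult, from Psmd3 (1.16-fold lower) to Psmd13 (2.60-fold lower).

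The comparison of adult cortex with adult hippocampus, whose RNA was selected differently, depended on the scaling. The median RNA change of 30 members was −0.00 as a share of reads on genes, but −0.61 with the authors' RPM and −0.55 by 3′-end tags. By share of reads, 3 members were at least 1.5-fold higher in the cortex (21% of all genes) and 2 lower (14.4%). In RPFs 6 members were higher (21.5%) and 0 lower (14.4%). TE, on the authors' RPM, was at least 1.5-fold higher in the cortex for 19 of 30 members (45.4% of all genes), with a median of 0.74 where the median gene changed by 0.51.

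Members differed in TE within each library, and a few kept their place. The beta subunit Psmb2 was near the top throughout, with a TE of 1.86 to 2.503 in the 7 cultures and 1.90, 1.82 and 2.85 in the tissues in the same order. Psme4 reached the lowest value of any member, at −0.998 to 0.67 in cultures and −1.05, 0.30 and −0.67 in the tissues. The place of other members differed between cultures and tissues. The lid subunits Psmd3 and Psmd7 were high in cultures, at 1.66 to 2.76 and 1.40 to 3.07, but had 1.42, 0.89 and 2.17, and 0.75, 1.37 and 2.18, in the tissues. Psmd7 was thus above only 44.9% of genes in the adult hippocampus. Psma7 and Psmc1 were low in cultures, at 0.19 to 0.77 and 0.11 to 0.86. In the tissues Psma7 had 0.73, 0.79 and 1.43, above 44.1%, 55.3% and 55.0% of genes, and Psmc1 had −0.43, 0.64 and 0.42. The lowest TE of Psmb2 over the 10 states, 1.82, was above the highest of Psma7, 1.43, although both belong to the core particle.

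As a set, the members lay close to the median gene in cultures and above it in tissues. The median TE of the members minus that of all genes was −0.17 in the unstimulated DIV14 culture, −0.03 with BDNF, −0.05 with glu/gly, −0.02 with GFP, −0.10 in the unstimulated DIV10 culture, and 0.21 and 0.10 after 10 and 30 min of KCl. It was 0.30 in the adult hippocampus, 0.62 in the embryonic hippocampus and 0.63 in the adult cortex. Of 28 members with TE in all 10 states, 10 were higher relative to the median gene in all 3 tissues than in all 7 cultures, against 13.3% of all genes, and 0 were lower, against 18.2%. These were Psma4, Psma7, Psmb4 and Psmb7 of the core, Psmc3, Psmd4, Psmd6, Psmd8 and Psmd14 of the regulatory particle, and the chaperone Psmd5. Relative to the length class the members' median became −0.00 in the adult hippocampus and 0.13 in the adult cortex, and 0.43 in the embryonic hippocampus, where 30 of 39 members lay above their class.

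Core and regulatory genes had similar TE. The median core gene minus the median regulatory gene ranged from −0.13 (GFP) to 0.15 (unstimulated DIV14) in cultures, with both signs. It was 0.29 in the adult hippocampus, 0.17 in the embryonic hippocampus and 0.16 in the adult cortex. Relative to length class these became 0.11, 0.02 and −0.12, so the sign in the adult cortex was turned by the length class.

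By share of reads on genes, few members differed in RNA after neuronal stimulation. BDNF and glu/gly share 1 control library, as do both KCl times. With BDNF, 0 of 29 members were at least 1.5-fold higher (2.51% of all genes) or lower (3.25%) in RNA, with a median of −0.15. No member passed 1.5-fold in RPFs (0.446% and 1.96%) or TE (1.76% and 7.16%). With glu/gly, 0 were higher (5.41%) and 2 were lower (5.2%): the ATPase Psmc1 at 0.616-fold (0.451 to 0.837) and the lid subunit Psmd13 at 0.605-fold (0.473 to 0.771). All 10 core genes and 15 of 16 regulatory genes were below 0 in RNA with glu/gly, with a median over all 29 members of −0.29 where the median gene changed by −0.04. Their RPFs changed by −0.05, with 0 at least 1.5-fold higher (1.1%) or lower (2.54%), and their 3′-end tags by 0.02, so this RNA difference was not seen in the other assays. TE changed by −0.10 in the members and by −0.30 in the median gene, with 0 members higher (0.993%) and 1, the chaperone Psmd9, lower (23.1%).

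With KCl for 10 min, RPFs of most members were slightly higher. The median member changed by 0.14 and the median gene by −0.04, with 24 of 31 members above 0, but 0 were at least 1.5-fold higher (0.887% of all genes). Psmb6 was at 1.27-fold (1.18 to 1.36), Psmb5 at 1.25-fold (1.06 to 1.47) and Psmb7 at 1.12-fold (1.05 to 1.19) of the unstimulated DIV10 culture. Psme4 was the only member at least 1.5-fold lower (12.5% of all genes), at 0.542-fold (0.482 to 0.609). Its RNA was at 1.14-fold (0.944 to 1.38). The TE of Psme4, on the authors' RPM, changed by −1.42 when the median gene changed by −0.41 and the median member by −0.15, and it was the 1 member at least 1.5-fold lower in TE (36%), with 0 higher (0.528%). In RNA, 0 of 31 members were higher (1.96%) and 1, the lid subunit Psmd7, was lower (1.82%) at 0.658-fold (0.477 to 0.896).

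With KCl for 30 min the RNA of the ATPase Psmc6 was at 1.74-fold (1.48 to 2.04) and that of Psmd7 at 0.524-fold (0.389 to 0.699). These were the only members of 28 at least 1.5-fold higher (9.45%) or lower (5.4%) by share of reads. The median member changed by 0.09 on this scale and by −0.41 with the authors' RPM. In RPFs, 0 were higher (1.75%) and again 1, Psme4, was lower (11.3%), at 0.599-fold (0.518 to 0.689). The RPF median over members was 0.07 and over all genes −0.00. TE was at least 1.5-fold higher in 8 of 28 members, close to the 30.9% of all genes, and lower in 0 (6.34%).

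The lentiviral cultures differed little in these genes as shares of reads on genes, whereas with the authors' RPM the median member changed by 0.32 with miR-1 against GFP and by −0.30 in GFP against the unstimulated culture. With miR-1 against GFP, 1 of 28 members was higher in RNA (3.65%), Psmd3 at 1.61-fold (1.16 to 2.28, from 47 reads in GFP), and 0 were lower (5.22%). With miR-155 against the same GFP library, 0 of 28 were higher (2.76%) or lower (3.71%). GFP against the unstimulated DIV14 culture had 0 of 28 members higher (5.27%) and 3 lower (4.6%), namely Psmc2 (0.632-fold, 0.474 to 0.838), Psmd3 (0.635-fold, 0.435 to 0.919) and Psmd7 (0.560-fold, 0.370 to 0.837). Psmd3 and Psmd7 were counted from 47 and 38 reads in the GFP library. In RPFs 0 members were higher (2.19%) or lower (3.48%), and in TE 3 were higher (11.1%) and 0 lower (3.43%).

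The younger unstimulated culture had more RPFs on these genes than the older one. At DIV10, 28 of 29 members were above DIV14, including all 16 regulatory genes, with a median of 0.21 beside 0.03 for all genes. Only Psme4 exceeded 1.5-fold (9.02% of all genes), at 1.55-fold (1.38 to 1.75), and 0 were lower (9.22%). RNA changed by 0.05 in the median member, with 0 of 29 at least 1.5-fold higher (7.51%) or lower (7.6%). TE changed by 0.15, with 0 higher (3.49%) or lower (6.87%). The 3′-end tags had a median of 0.29 and were higher for 26 of 29 members. The median tag change of all genes ran from 0.15 under 600 nt to −0.09 at 3000 nt or more. Relative to the length class, the members' tag median was 0.17, with 23 of 29 above their class. For RPFs it was 0.21, with 28 of 29 above. The DIV10 and DIV14 samples differ in more than age, since they belong to separate sets of stimulations, and the parts cannot be told apart.

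Poly(A) tails of the members were shorter than those of the median gene. Among genes with at least 50 tags, the median member was below the median gene in all 20 libraries. In the 9 cultures this difference ran from −9.54 nt (KCl for 30 min) to −5.07 nt (KCl for 10 min), in the adult cortex it was −7.45 nt, and in the 8 visual cortices it ran from −10.3 to −5.77 nt. The hippocampal files hold multiples of 0.5 nt, which are read as medians, and only 12 members in the adult and 3 in the embryo reached 50 tags. Of 26 members with 50 tags in all 10 TAIL-seq libraries, 15 were below the median gene in every one, against 25.4% of all 1554 genes. Of 34 members with 50 tags in all 8 visual cortices, 17 were below in every one, against 19.7% of 4321 genes.

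Psma7 had 69.4 to 83.2 nt in the 9 cultures (median 75.9) and 83.2 nt in the adult cortex, at a median percentile of 1.48 among the genes of each library. In the visual cortex it had 79.2, 72.0, 63.8 and 63.8 nt in dark and 66.2, 78.6, 77.3 and 63.0 nt in light. Psmc5 had 71.9 to 99.7 nt in cultures and 68.7 nt in the adult cortex, at a median percentile of 4.45. Psmd4 had the lowest median percentile of the members in the visual cortex, 2.45, with 68.6, 72.4, 59.8 and 59.1 nt in dark and 65.9, 75.8, 74.7 and 61.0 nt in light. In TAIL-seq its median percentile was 23.0.

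At the other end, Psmd3 had 111 to 123 nt in cultures (median percentile 84.5 in TAIL-seq) and was above the median gene in all 10 TAIL-seq libraries and all 8 visual cortices. Psma5 was above it in all 10 TAIL-seq libraries, with 107.7 to 119 nt in cultures. In the visual cortex the inhibitor Psmf1 had the highest median percentile of the members, 87.5, with 103, 105, 86.2 and 97.3 nt in dark and 101, 118, 105 and 83.9 nt in light, followed by Psmb10. Long and short tails occurred within the same ring or lid: Psma5 and Psma7 are both alpha subunits, and Psmd3 and Psmd6, at 72.5 to 89.0 nt in cultures, are both lid subunits.

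**Figure D3:**
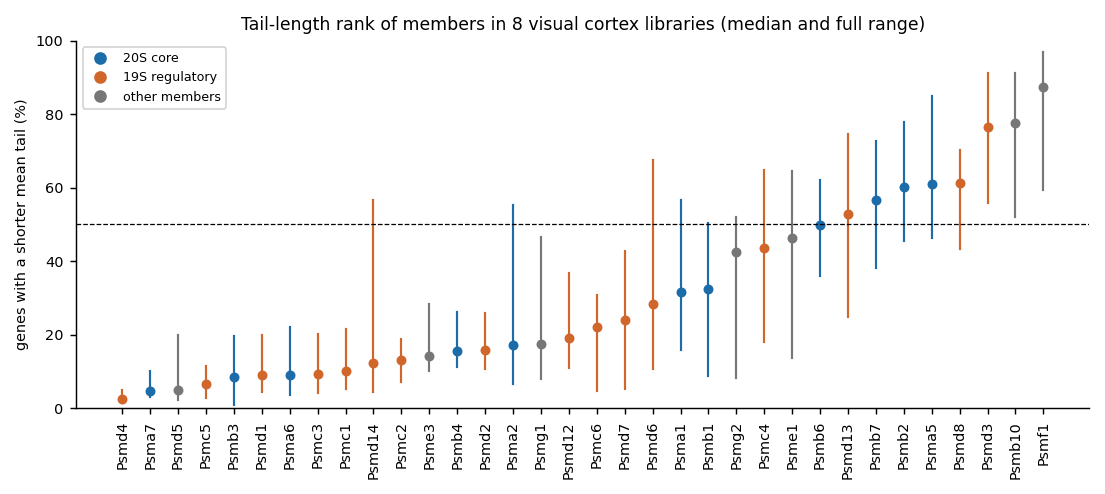
Percentage of genes with a shorter mean tail than each of 34 members in the 8 visual cortex libraries; points are medians and lines the full range over the libraries, for core (blue), regulatory (orange) and other members (gray). Psmd4 and Psma7 lie below 11% in all 8 libraries, and Psmd3, Psmb10 and Psmf1 lie above 50% in all 8.

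Core and regulatory genes differed in median tail length by a few nt in most libraries of cultures and cortex, with both signs among the cultures. The median core gene minus the median regulatory gene ranged from −4.22 to 3.58 nt in the cultures and was 1.81 nt in the adult cortex. It was 6 nt in the adult hippocampus (5 core and 7 regulatory genes) and 13.5 nt in the embryonic hippocampus (2 and 1), but −4 and −8.75 nt there when 20 tags sufficed. In the visual cortex it was 2.21 nt ± 2.62 (SD, n = 4) in dark and 3.82 nt ± 3.37 in light, a difference below the spread between mice (two-sided exact permutation test, p = 0.514, n = 4 per group). The core minus regulatory value of single mice ran from −0.016 to 8.42 nt and was below 0 in dark mouse 4 only. With glu/gly, all 11 core genes had shorter tails than in the unstimulated culture, with a median change of −4.31 nt, but the median gene shortened by 4.68 nt. The DIV10 culture and the GFP culture also had shorter tails in the median core gene than the unstimulated DIV14 culture (changes of −9.64 and −11.4 nt, where the median gene changed by −6.93 and −8.45 nt). The median regulatory gene changed by −7.54 and −5.39 nt in these cultures, and by −3.58 nt with glu/gly. These comparisons all share the same unstimulated DIV14 library.

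No member changed detectably on light exposure of dark-housed mice in the visual cortex. The activity-regulated genes Egr1, Fos, Arc and Npas4 rose by 3.15, 3.91, 3.29 and 2.84 on the log2 scale of tag counts (edgeR quasi-likelihood test, adjusted p = 1.02e-11, 1.42e-06, 2.49e-05 and 5.17e-05). Of 9554 genes tested, 128 (1.34%) passed an adjusted p of 0.05, and none of 42 members did. By edgeR 1 of 42 members had an unadjusted p below 0.05, beside 903 of all 9554 genes. DESeq2 also called 0 members, with 1 below 0.05 unadjusted, beside 681 of all 9554 genes. The member below 0.05 by edgeR was Psmb4, whose normalized tag counts (CPM) were 367, 389, 390 and 348 in the dark mice and 471, 446, 406 and 440 in the light mice. The groups did not overlap, and the log2 change was 0.24 (SE 0.0875, edgeR adjusted p = 0.316). Psma2 had 90.3, 81.0, 101 and 75.2 in dark and 80.1, 65.0, 76.1 and 66.5 in light, which overlap, with a log2 change of −0.27 (SE 0.13, edgeR adjusted p = 0.531). The median member changed by −0.02, with 16 of 42 members above 0.

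No member passed in tail length either. By limma, 10 of 4321 genes (0.231%) passed, all longer in light, and none of 34 members did, adjusted or at an unadjusted p below 0.05, a level that 170 of all genes passed. The median member was 2.38 nt longer in light and the median gene 3.75 nt. The direction of the members' median rested on single mice: it was −0.42 nt without light mouse 3, 0.085 nt without dark mouse 3, and −0.30 nt when libraries were weighted by tags. The fit pooled the spread over all genes, so the same SE of 6.68 nt applied to all 34 members and small changes could not pass. The largest change among members was that of Psma6, with 77.1, 73.5, 66.1 and 62.4 nt in dark and 76.4, 76.6, 87.6 and 72.1 nt in light, a change of 8.38 nt (pooled SE 6.68, limma adjusted p = 0.999). The median gene itself ranged over more than this, with 77.4 to 92.4 nt in the dark mice and 81.6 to 97.8 nt in the light mice. Taken relative to the median gene of each mouse, the median member was −6.75 nt ± 1.22 in dark and −8.87 nt ± 1.47 in light (SD, n = 4, two-sided exact permutation test, p = 0.114, where the smallest possible p is 0.0286).

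Genes that work with the proteasome were read beside its subunits. A list of 22 such genes held ubiquitin genes, shuttle factors, deubiquitylases, the unfoldase Vcp and the transcription factors Nfe2l1 and Nfe2l2, of which Nfe2l1 is known to drive proteasome subunit genes. Between adult cortex and unstimulated culture, 2 of 17 above the cutoff were at least 1.5-fold higher in RNA and 8 were lower, with a median of −0.27, where 20.1% and 30.5% of all genes were. Vcp was 2.61-fold lower (1.92 to 3.53) and Ubb 2.43-fold lower (1.89 to 3.13), whereas Nfe2l1 was at 1.49-fold (1.2 to 1.87). Between adult and embryonic hippocampus 2 of 19 were higher and 3 lower, beside 24.2% and 31.5% of all genes, and Nfe2l1 was at 2.13-fold (2.00 to 2.27) in the adult. In light against dark visual cortex 0 of 20 were called in tag counts and 0 of 18 in tails, and likewise 0 of 7 interferon and antigen presentation genes in tag counts.

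Promoters were inspected for TGACNNNGC, the core of the antioxidant response element bound by Nfe2l1 and related factors, on both strands from 250 bases before to 50 after the annotated start (RefSeq, GRCm38.p6). It occurred in 6 of 43 genes of the symbol pattern with a promoter sequence (14%), the same as for all 27025 genes (14%). Psmc3ip and Psme3ip1 were not left out of this set. The 2 core and 2 regulatory genes with a match were Psmb5 and Psmb6, and Psmc6 and Psmd12. The sites in the catalytic subunits are shown with the motif in capitals.
Psmb5 (chr14:54618024-54618052, minus strand, 47 bases before the start): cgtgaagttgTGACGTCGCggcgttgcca
Psmb6 (chr11:70525338-70525366, plus strand): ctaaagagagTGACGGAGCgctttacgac
The sites in members are letters in a sequence and no evidence of binding.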

How the data were processed

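Reads were counted by the authors over 1 representative coding sequence for each gene, leaving out the first 50 nt. They deposited them as raw read counts, the counted length and RPM, which the authors scaled to a total larger than the reads on listed genes. STAR 2.4.2, bedtools and mm10 are named in the submitters' processing notes. Deposited tail files give tag counts and a tail length per gene (nt), as a mean except for the hippocampi. The authors also deposited log2 TE values, used here to check their construction and as an alternative setting for the TE results. Values were read per gene, 17010 of 17158 accessions were matched to symbols in RefSeq GRCm38.p6, and the quantification standards were left out of totals (up to 19.05% of tags and 0.0881% of RNA-seq reads).

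Densities and changes were computed from counts. TE was log2(RPF RPM / RNA RPM) at 10 RPM or more in RNA-seq, and tails needed 50 tags. A member was called changed between single libraries past 1.5-fold, with a Clopper-Pearson counting interval and no test. Light and dark mice were compared by edgeR 4.0.16 (quasi-likelihood, TMM, filterByExpr) on tag counts and by limma 3.58.1 on tail lengths, both with Benjamini-Hochberg adjustment over all genes, and tested on simulated data. DESeq2 1.42.0 was an alternative. Reads of genes with copies may be lost or shared in the authors' counting, and the handling of multiply mapping RNA-seq reads and RPFs is not given in the sources used here. By the study's methods, tags of splint-ligation tail libraries were kept only where they mapped to 1 place. Named genes were the catalytic, immunoproteasome, activator, inhibitor and chaperone genes, fixed examples of each ring, base and lid, and the 3 largest and smallest values per comparison. Genes named beyond these were chosen after their values were seen. Members and lists were chosen with earlier results of these data known. Lists used were cell type markers, ubiquitin-proteasome partners, and interferon and antigen presentation genes. In 2 RPF libraries the labels contradict each other, and these entered no comparison.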

Additional observations from a re-analysis of the deposited data

Results flagged for a closer look

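In the visual cortex, 82 groups of 4 mice were examined for a member with 1 value far from the other 3, and 4 were found, which is about the 1 in 20 that chance gives. Psmc1 had normalized tag counts of 235, 203, 200.3 and 206 CPM in the light mice, where the gap of the highest value was 0.845 of the range. Psmd2 had 272, 309, 269 and 265 in the dark mice (0.833). Psmd5, a regulatory assembly chaperone, was found in both measures in the light mice, with tag counts of 47.1, 47.4, 52.8 and 47.8 CPM (0.882) and tail lengths of 75.6, 75.3, 75.1 and 65.5 nt (0.945). The mice that stood apart in tag count and in tail length of Psmd5 were different animals.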

How the results depend on the processing

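Depth limits the single members: in the unstimulated DIV14 culture the members above the cutoff had 25 to 287 RNA-seq reads each. For RNA changes 48 of 75 alternatives stayed within the 95% interval of the median over members. For TE beside all genes 46 of 50 did. Core minus regulatory values were held against the combined intervals of both particles, and visual cortex tails against the SD over mice. For core minus regulatory TE 50 of 50 stayed within, and for each tail comparison 45 of 49. The intervals describe spread between genes, not between samples, so staying within them is no measure of reproducibility. They were wide: with KCl for 10 min, core minus regulatory TE went from −0.051 to −0.26 relative to length class and counted as within. A reversal was counted only for RNA medians past 1.5-fold and for named genes in light against dark, and none occurred. Smaller values could change sign uncounted: core minus regulatory TE in the adult cortex went from 0.16 to −0.12 relative to length class. Alternatives relative to coding length class were chosen after seeing the data.

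The authors' RPM in place of shares of reads on genes moved the median RNA change to −0.17 (glu/gly), 0.088 (KCl for 10 min), −0.41 (KCl for 30 min), 0.32 (miR-1), −0.30 (GFP), −0.10 (DIV10), −0.83 (adult against embryonic hippocampus) and −0.61 (adult cortex against adult hippocampus). Tags in place of reads gave −0.085 (BDNF), 0.017 (glu/gly), −0.056 (KCl for 30 min), 0.24 (GFP), 0.29 (DIV10), −0.55 (adult cortex against hippocampus) and −0.34 (adult cortex against culture). RPFs in place of reads gave −0.059 (BDNF), −0.054 (glu/gly), 0.14 (KCl for 10 min), 0.21 (DIV10), −0.93 (hippocampus) and −0.32 (adult cortex against culture). Setting the median gene to 0 gave 0.00039 (KCl for 30 min) and −0.34 (hippocampus). The length class gave −0.16 (glu/gly), −0.00070 (KCl for 30 min) and −0.64 (adult cortex against culture), and a cutoff of 30 RPM gave −0.89 for the last. The TE difference became −0.14 (BDNF) and −0.21 (DIV10) at 30 RPM, and −0.0040 (adult hippocampus) and 0.13 (adult cortex) relative to length class. The causes were not tested.

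For tails, requiring 100 tags gave core minus regulatory values of −13 nt (adult hippocampus) and 5.76 nt (GFP) and member differences of −1 nt (adult hippocampus), −16.6 nt (GFP) and −17.3 nt (miR-1). Requiring 20 tags gave −4 and −8.75 nt for core minus regulatory in the adult and embryonic hippocampus, and −2.5 nt for the members in the adult. In light against dark, the count of 10 genes with changed tails became 1 with log2 tails, 1 with weights by tags, and 1 to 21 when 1 mouse was left out (19 without dark mouse 1 and 21 without light mouse 4). With the replicate block it was 1, and tag counts gave 113 genes and 0 members. Same-numbered mice did not deviate together (correlations −0.196 to 0.0308 for tag counts and −0.113 to 0.0405 for tails), none correlated best with its own number, and the numbers were not read as pairs. No member was called under any of these alternatives.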

Other observations

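The RPF libraries whose title and other labels name different miRNAs held 817114 and 6428048 RPFs on genes. Of these, 0.638% and 0.578% fell on the 51 genes of the symbol pattern, Psmc3ip and Psme3ip1 included. The 7 cultures of settled label ranged from 0.548% to 0.716% on the same 51 genes.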
